A study of Mus musculus with 2 samples.

Results

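Collagen genes were compared between primary oligodendrocytes, the myelin-forming glia, and primary astrocytes of the mouse. The collagens were taken as every probe that reads a gene and whose listed gene name begins with Col, followed by 1 or 2 digits, the letter a and a digit. This took 82 probes with 41 gene names out of 41174 gene probes, which represent 27671 genes. Of these names 40 are collagen genes with 78 probes, and the remaining name, Col4a3bp, with 4 probes, belongs to Cert1, a ceramide transfer protein that is no collagen. Each of 2 Agilent arrays held oligodendrocyte RNA and astrocyte RNA together in 2 dye colours. Replicate 1 carried Cy3 on its astrocyte RNA and Cy5 on its oligodendrocyte RNA, and replicate 4 carried the dyes the other way round. The series text calls its 3 samples per cell type independent, without saying whether they were separate cultures; further arrays were not analysed here. All RNA came from untreated cells of C57BL/6J mice; the age and number of the animals are not given in the sources used here. Oligodendrocytes were obtained by shaking them from mixed glial cultures. Astrocytes were the adherent cells of such cultures, kept on with serum after the oligodendrocytes had gone and collected with trypsin once microglia had also been shaken away. The cell types therefore differed in harvest and in time in serum as well as in identity, and none of these can be told apart here. The comparison was made to find mRNAs that oligodendrocytes hold at higher levels.

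Collagens are secreted proteins in which 3 chains wind into a triple helix, and every helical stretch repeats the triplet Gly-X-Y. Fibrillar collagens assemble into the banded fibrils of connective tissue, type IV collagens into the sheet of basement membranes, and other types decorate fibrils, anchor membranes or cross the cell membrane. Brain tissue holds little fibrillar collagen outside its meninges and vessels, and its basement membranes lie at the vessel wall and the pial surface, where astrocyte end feet meet them.

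The triplet can be read directly in the 60-base probes. A reading frame in which every codon of the repeating position is a glycine codon, with at least 6 of them, was found in 3 of the 78 collagen probes and in 0 of the 41092 other gene probes. They are shown because their letters carry the family's defining repeat and place them in the coding sequence; glycine codons are in capitals. They lie in the array design's mm7 build at chr17:32131401-32131567 (Col11a2, plus strand), chr2:27994034-27996457 (Col5a1, plus strand) and chr9:20655471-20656200 (Col5a3, minus strand), and each spans more genome than 60 bases.

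Col11a2: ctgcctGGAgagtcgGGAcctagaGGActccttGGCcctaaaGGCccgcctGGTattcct
Col5a1: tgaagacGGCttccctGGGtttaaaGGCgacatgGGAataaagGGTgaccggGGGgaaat
Col5a3: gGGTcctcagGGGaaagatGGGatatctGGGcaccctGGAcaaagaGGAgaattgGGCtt

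Values below are log2 ratios of oligodendrocyte over astrocyte after loess normalisation, so a positive value is higher in oligodendrocytes and 0 is near the typical gene. A gene is represented by its brightest probe, and it was called when the limma adjusted p was under 0.05. Across genes, which are not independent replicates, Pearson's r between the arrays was 0.93 and Spearman's rho was 0.81. No gene spot was saturated. With 2 arrays, an exact sign-flip test of a gene alone cannot go below p = 0.5, so the calls rest on limma's variance shared over all genes, and their p-values cover the array-to-array spread alone, which is technical if the samples shared a culture. The spike-in probes read 0.71 higher on the oligodendrocyte side, a median over these probes whose spread is not given here. With ratios set to them, all ratios drop by this much, and 6.67% of the called genes are higher in oligodendrocytes, where loess gave 45.1%.

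Collagen genes were called in both directions. Of 38 collagen genes tested, 13 favoured oligodendrocytes, 8 favoured astrocytes and 17 were not called. Over all 21939 genes tested, 41.2% were called, of which the oligodendrocyte side made up 18.6% of all genes and the astrocyte side 22.6%. The median collagen ratio was 0.14, against -0.0040 for all genes. Set to the spike-ins, the collagen counts became 10 toward oligodendrocytes and 24 toward astrocytes, and with median centring they became 8 and 4. Every channel of both arrays was well above background for 36 of the 38 genes, and 34 had the same sign on both arrays. Over all 21939 genes tested, 20487 were well above background in every channel and 76.3% had the same sign. The other 2 collagens, Col10a1, a chain of hypertrophic cartilage, and Col28a1, were not tested. In each cell type they were not well above background on at least 1 array.

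By class, the fibrillar collagens had the highest median, 1.02 over 11 genes, with 7 called toward oligodendrocytes, 2 toward astrocytes and 2 not called. The median of the 8 basement membrane collagens was 0.14, with 2 higher in each cell type and 4 not called, and it turned to -0.57 with ratios set to the spike-ins. The 19 other collagens tested had a median of 0.0023, with 4 higher in each cell type and 11 not called, and -0.71 with the spike-ins. The fibrillar median stayed above 0 with the spike-ins, at 0.31. It was lower when other probes stood for a gene: 0.44 with the mean of a gene's probes and 0.18 with the dimmest entering probe.

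**Figure D1:**
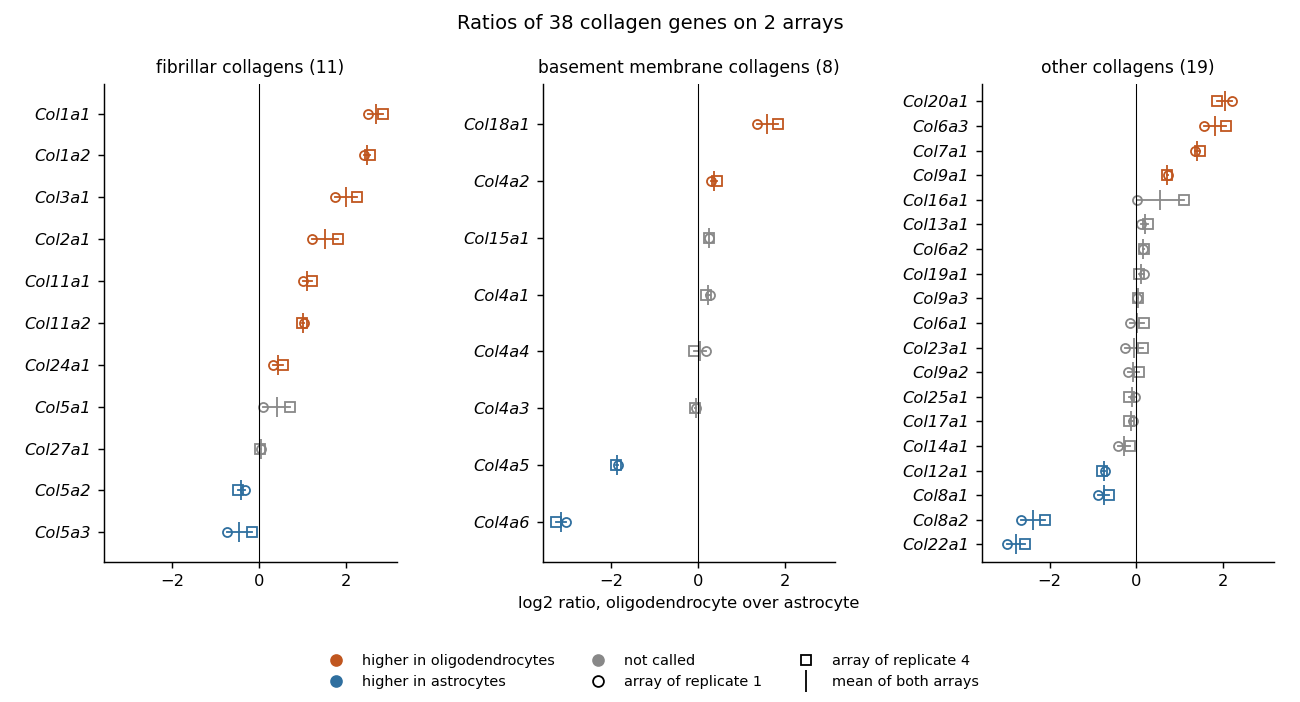
Log2 ratios of oligodendrocyte over astrocyte (horizontal axis) for the 38 collagen genes tested, in 3 classes, with a circle for the array of replicate 1, a square for replicate 4 and a bar at their mean. Fibrillar collagens reach from -0.46 to 2.69, basement membrane collagens from -3.16 to 1.60 and the others from -2.78 to 2.04; colour marks the limma call.

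Among the fibrillar collagens, the chains of type I and type III had the largest ratios toward oligodendrocytes. Col1a1, which encodes the α1 chain of type I collagen, read 2.52 on the array of replicate 1 and 2.86 on that of replicate 4. Its normalised log2 signal was 14.60 and 14.73 in oligodendrocytes and 12.09 and 11.87 in astrocytes, so the cell types did not overlap. This is a 6.45-fold difference, the log2 ratio being 2.69 ± 0.25 (SD, n = 2; limma adjusted p = 2.4e-07). The probe was printed in 10 spots on each array, which ranged from 2.47 to 2.58 on replicate 1 and from 2.82 to 2.91 on replicate 4. The arrays thus lay farther apart than the spots within them.

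Col1a2, the α2 chain that joins Col1a1 in the type I helix, read 2.42 and 2.56, a mean of 2.49 ± 0.098 (SD, n = 2) and 5.60-fold, with a limma adjusted p of 2.4e-07. Col3a1, the chain of type III collagen, which forms fibrils together with type I, read 1.76 and 2.26, a mean of 2.01 ± 0.36 and 4.02-fold. Both type I chains and type III were thus more than 4-fold higher in oligodendrocyte RNA on their brightest probes.

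The fibrillar chains of types II, XI and XXIV were also higher in oligodendrocytes on their brightest probes. Col2a1, the type II collagen of cartilage, read 1.22 and 1.83 (mean 1.52 ± 0.43). Col11a1 and Col11a2, chains of the type XI collagen that nucleates type II fibrils, had means of 1.11 ± 0.15 and 1.02 ± 0.034. Col24a1 was higher by a smaller margin, at 0.44 ± 0.16, and turned to -0.27 with ratios set to the spike-ins. The limma adjusted p of these 4 genes was at most 0.018.

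The 3 chains of type V collagen, which regulates the diameter of type I fibrils, did not share a direction. Col5a2 read -0.33 and -0.48 (mean -0.41 ± 0.10) and Col5a3 read -0.74 and -0.17 (mean -0.46 ± 0.40), both called higher in astrocytes with limma adjusted p of 0.023 and 0.035. Both calls were lost with Feature Extraction's own log ratio. Col5a1 read 0.088 and 0.73, above 0 on both arrays but unlike in size, and its mean of 0.41 was not called; it was called with an offset of 10 (0.42, limma adjusted p = 0.034) and turned to -0.30 with the spike-ins. Col27a1 lay at 0.038 ± 0.0055 on its brightest probe and was not called either. Its most 3′ probe read 0.31 and 0.38 and was called higher in oligodendrocytes (mean 0.35, limma adjusted p over probes = 0.037); this pair of probes was not called different, except with Feature Extraction's log ratio and its copy in the authors' table (-0.83, limma adjusted p = 0.047).

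Most fibroblast and meningeal markers were higher in oligodendrocyte RNA, as were most of the microglia and Schwann cell markers given below. Most pericyte, smooth muscle and endothelial markers were not. Of 13 fibroblast and meningeal markers tested, 8 were higher in oligodendrocyte RNA and 2 in astrocyte RNA, with a median of 0.63. Over all genes tested, the shares were 18.6% and 22.6%. Of the list's 14 genes, 3 are also on the processing list below. The first members of the fibroblast and meningeal list, Pdgfra, which oligodendrocyte precursors also express, and Dcn, read 2.21 and -0.19. The mean log2 signal of these markers was 10.31 and 10.37 in oligodendrocytes and 9.46 and 9.37 in astrocytes, and all 13 were well above background in every channel. With ratios set to the spike-ins the counts became 4 and 5 and the median -0.083. Their part in the collagen ratios was not tested. In such RNA from whole cultures, fewer cells of a type and less RNA per cell cannot be told apart.

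The labelled cell types matched their markers. All 10 oligodendrocyte markers were higher in oligodendrocytes (median 3.52; Mbp 4.21, Mog 3.05) and all 10 astrocyte markers were higher in astrocytes (median -3.03; Gfap -4.05, Aqp4 -3.40). Of 10 microglia markers, 9 were higher in oligodendrocyte RNA (median 1.11; Aif1 0.99, Cx3cr1 1.22), with a mean log2 signal of 12.07 and 12.10 against 10.82 and 10.82 in astrocytes, and all 10 were well above background in every channel. Of 7 pericyte and smooth muscle markers, 1 was higher in oligodendrocytes and 4 in astrocytes (median -0.67; Pdgfrb 0.21, Rgs5 -0.67). Of 8 endothelial markers the counts were 3 and 1 (median 0.015; Pecam1 -0.022, Cdh5 0.74), and of 7 Schwann cell markers 4 and 0 (median 1.84; Pmp22 -0.22). With the spike-ins the counts became 6 and 1 for microglia (median 0.40), 1 and 6 for pericytes (-1.38), 1 and 5 for endothelial cells (-0.70) and 4 and 3 for Schwann cells (1.13). Their part in the collagen ratios was not tested either.

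Basement membrane collagens held the lowest ratio of the family. Col4a6, the α6 chain of type IV collagen, read -3.05 and -3.27 on the arrays. Its log2 signal was 9.73 and 9.75 in oligodendrocytes and 12.78 and 13.02 in astrocytes, without overlap. It was 8.92-fold higher in astrocytes (log2 ratio -3.16 ± 0.15, SD, n = 2; limma adjusted p = 9.4e-08). Col4a5, the α5 chain, with which α6 assembles, read -1.83 and -1.89 and was 3.63-fold higher in astrocytes (-1.86 ± 0.046, limma adjusted p = 1.2e-06).

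The chains of the common type IV network did not share this ratio. Col4a1 lay at 0.23 ± 0.063 and was not called, and Col4a2, its partner in the network found in nearly all basement membranes, was called higher in oligodendrocytes at 0.38 ± 0.090 (limma adjusted p = 0.031). This call was lost with median centring and with the dimmest probe, and the ratio turned to -0.33 with the spike-ins. Col4a3 and Col4a4, which with α5 form the network of the kidney filter, were not called, at -0.047 and 0.051. Col4a3 was well above background in oligodendrocytes on 1 array only. For Col4a4 the lack of a call depended on the probe, as given below.

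Of the collagens that carry heparan sulphate or chondroitin sulphate chains at basement membranes, Col18a1, the source of endostatin, read 1.36 and 1.85. It was 3.04-fold higher in oligodendrocytes (1.60 ± 0.35, limma adjusted p = 1.1e-05), and its second probe read 1.43. Col15a1 lay at 0.26 ± 0.0060 and was not called; it was well above background in astrocytes on 1 array only. It was called with an offset of 10 (0.49, limma adjusted p = 0.012) and with Feature Extraction's log ratio (0.92), and turned to -0.45 with the spike-ins.

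Among the other collagens, the largest ratio toward oligodendrocytes was that of Col20a1, a fibril-associated collagen. It read 2.21 and 1.86, a 4.10-fold difference (2.04 ± 0.25, limma adjusted p = 1.3e-06). Col9a1, a chain of the type IX collagen that coats type II fibrils, was also higher (mean 0.71 ± 0.012), but lay at -0.0035 with ratios set to the spike-ins. Its partners Col9a2 and Col9a3 were not called, at -0.075 and 0.026.

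In the opposite direction stood Col22a1, a fibril-associated collagen of tissue junctions, which read -2.99 and -2.57. It was 6.88-fold higher in astrocytes (-2.78 ± 0.29, limma adjusted p = 2.5e-07). Col12a1, which binds type I fibrils in dense tissues, was higher in astrocytes at -0.75 ± 0.051. Its relative Col14a1 lay at -0.28 ± 0.20 and Col19a1 at 0.11 ± 0.091, and neither was called. Col16a1 read 0.015 and 1.09, the widest gap between arrays of any collagen tested, and was not called (0.55 ± 0.76). Its call changed in 6 of 13 alternatives, with a limma adjusted p from 0.0030 with an offset of 10 to 0.68 with median centring, and its ratio turned to -0.16 with the spike-ins. The fibril-associated group thus held members at both ends of the range.

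Type VI collagen forms beaded filaments from 3 different chains, and the chains differed on these arrays. Col6a3 read 1.56 and 2.06 and was 3.50-fold higher in oligodendrocytes (1.81 ± 0.35, limma adjusted p = 5.1e-06). Col6a1 and Col6a2 were not called, at 0.0023 ± 0.23 and 0.16 ± 0.011. Col7a1, which forms the anchoring fibrils below epithelia, read 1.35 and 1.46 (1.41 ± 0.081, 2.65-fold).

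Both tested short chain collagens, which build hexagonal networks such as that under the corneal endothelium, were higher in astrocytes. Col8a2 read -2.65 and -2.10, a 5.19-fold difference (-2.38 ± 0.39, limma adjusted p = 1.1e-06), and Col8a1 read -0.89 and -0.63 (-0.76 ± 0.19). All 4 transmembrane collagens were not called. They lay at 0.19 for Col13a1, -0.060 for Col23a1, -0.099 for Col25a1, whose product was found in amyloid plaques, and -0.13 for Col17a1, a hemidesmosome component.

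Probes of the same gene often disagreed. Of 58 collagen probes that entered, 29 were called, 17 higher in oligodendrocytes and 12 in astrocytes, against 40.3% of all entering probes. In 16 collagen genes with several entering probes, the brightest was set against each of the others on the same arrays, which gave 20 pairs. The ratios differed in 12 pairs, from 9 genes, at a limma adjusted p under 0.05, against 20.7% of the 10706 such pairs on the array. In 10 of the 12 the brightest probe lay farther from 0. The share among all differing pairs on the array is not given here, so this count cannot be read as particular to collagens. The offset used in background correction pulls ratios of dim probes toward 0, and its part in this count was not tested. The remaining 8 collagen pairs differed by -0.31 to 0.22 and were not called. With median centring, 2 collagen pairs were called different.

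**Figure D2:**
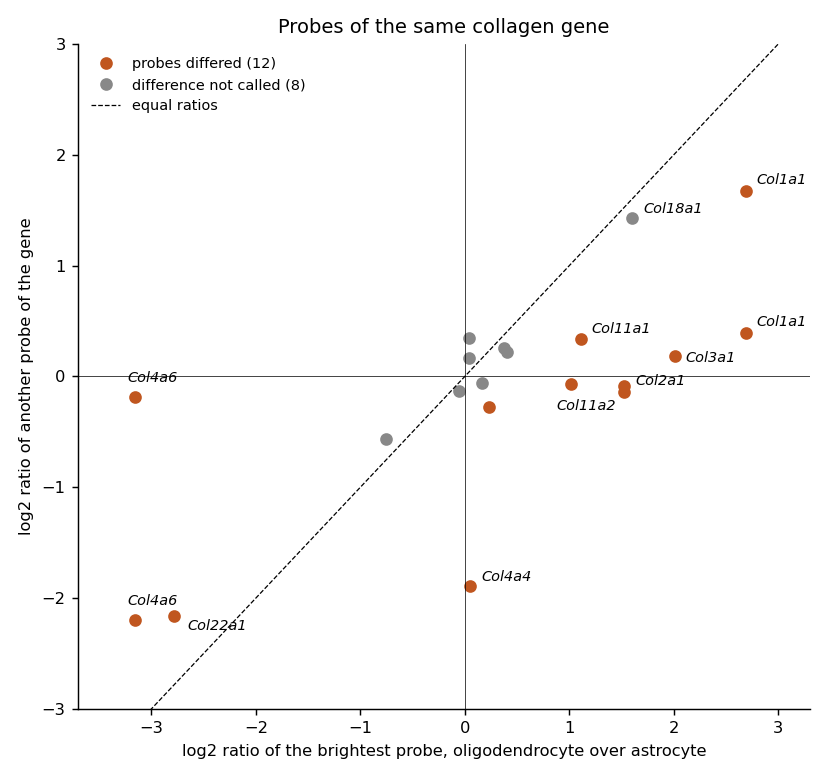
Log2 ratio of another probe of a collagen gene (vertical axis) against that of its brightest probe (horizontal axis), as means of 2 arrays, with 1 point per pair; the dashed line marks equal ratios. Of 20 pairs 12 differed, and the points of Col4a6 (-3.16 against -0.18), Col1a1 (2.69 against 0.39) and Col4a4 (0.051 against -1.89) lie farthest from the line.

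Col1a1 had 3 entering probes, and all 3 were called higher in oligodendrocytes. The first 30 bases of each are shown, from the 3′-most to the 5′-most, because their ratios fell in that order; they lie on the plus strand at chr11:95060800-95060859, chr11:95059777-95059836 and chr11:95047002-95047061 (mm7).

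Col1a1, brightest probe: ttttcctttgcattcacctttcaaacttag
Col1a1, middle probe: tgcaacctggacgccatcaaggtctactgc
Col1a1, 5′ probe: tggaaacccgaggtatgcttgatctgtatc

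The brightest read 2.69, the middle probe 1.76 and 1.58 (mean 1.67), and the 5′ probe 0.47 and 0.31 (mean 0.39). The brightest exceeded the middle probe by 1.02 ± 0.37 (SD, n = 2, limma adjusted p = 0.0007) and the 5′ probe by 2.30 ± 0.35 (limma adjusted p = 2.2e-07); the 5′ probe was well above background in astrocytes on 1 array only. These distances depend on how background was handled. With Feature Extraction's own log ratio, the 3 probes read 2.74, 2.04 and 1.29, and the gap to the middle probe was not called, as with median centring. With ratios set to the spike-ins, the 5′ probe turned to -0.32 while the others stayed above 0, at 1.98 and 0.96.

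Col4a6 also had 3 entering probes, within 1442 bases of each other, and they gave different pictures. They lie on the minus strand at chrX:135829764-135829823, chrX:135830590-135830649 and chrX:135831206-135831265 (mm7), and the first 30 bases of each are given from the 3′-most.

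Col4a6, brightest probe: ggcaaagcataacaagtacattctgagctc
Col4a6, middle probe: aggatttccaccctaaaaatacgtttctgg
Col4a6, 5′ probe: cagtccctaatctcccctggctcgtgtctt

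The brightest read -3.16 and the middle probe -2.38 and -2.02 (mean -2.20), both higher in astrocytes. The 5′ probe read -0.097 and -0.27 and was not called, although all 4 of its channel readings were well above background. The brightest minus this probe was -2.97 ± 0.032 (SD, n = 2, limma adjusted p = 1.1e-08). This gap was called in all 10 alternatives that gave the pair a test. The gap between the brightest and the middle probe was called in 6 of 10 and shrank to -0.065 with Feature Extraction's log ratio, where the probes read -3.19 and -3.12. In these and the later counts for pairs, spike-in scaling cannot move a gap, and the authors' table repeats Feature Extraction's log ratio.

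Col4a4 was not called on its brightest probe but strongly so on the other. The brightest read 0.20 and -0.094 and the other -1.80 and -1.99 (mean -1.89, limma adjusted p over probes = 1.1e-06), higher in astrocytes. This probe was well above background in oligodendrocytes on 1 array only. The difference of 1.95 ± 0.071 was called under all 9 alternatives that tested it, and the other probe read -2.72 with a background offset of 10 and -4.02 with Feature Extraction's log ratio. The brightest lies at chr1:82661529-82661590 and the other 4365 bases farther 3′, at chr1:82657164-82657223 (mm7, minus strand).

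Col4a4, brightest probe: tacatgtggagttgctcccccttctccttt
Col4a4, other probe: atgaagttgtgtgtatgtatgtattacgtg

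Col2a1 gave unlike ratios from probes that share most of their bases. Its brightest probe and a second probe overlap in 40 bases and differ only in the 20 bases at either end, which are shown as the part that distinguishes them (chr15:97979237-97979296 and chr15:97979257-97979316, mm7, minus strand).

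Col2a1, brightest probe, last 20 bases: tggtgtggacatagggcctg
Col2a1, overlapping probe, first 20 bases: ctcccgccttcccattattg

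The brightest probe, printed in 10 spots an array, read 1.16 to 1.26 on replicate 1 and 1.78 to 1.87 on replicate 4 (1 spot marked as an outlier was left out). The overlapping probe read 0.056 and -0.34 and was not called. The difference of 1.67 ± 0.72 had a limma adjusted p of 2.9e-05 and was called in 9 of 10 alternatives, the exception being median centring. The gene's 5′-most probe read -0.028 and -0.14. The call of Col2a1 therefore rests on 1 of its 3 probes.

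The brightest probes of Col3a1, Col11a1 and Col11a2 likewise had no second called probe under their names. Against the 2.01 of its brightest probe, Col3a1 read 0.18 on a probe 27228 bases 5′, a difference of 1.83 ± 0.43. Col11a2 read -0.073 on its Gly-X-Y probe printed above, 1.09 below its brightest. Col11a1 read 0.34 on a probe 129066 bases 5′ of its brightest, 0.77 lower. The limma adjusted p of these differences was at most 0.0074.

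In other genes the probes shared a sign. Col18a1 read 1.60 and 1.43, Col8a1 -0.76 and -0.56, and Col4a2 0.38 and 0.25, and these pairs were not called different. Col22a1 read -2.78 and -2.16 on its probes, which were called different (limma adjusted p = 0.024) while both were higher in astrocytes. The probes of Col4a1 had opposite signs. They read 0.23 and -0.28, a difference of 0.51 that was just called (limma adjusted p = 0.0498), and the pair was called in 4 of 10 alternatives.

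Among collagen genes with several probes, the most 3′ probes entered more often than probes far 5′ of them. The most 3′ probe was the brightest in 19 of 28 collagen genes with several probes. Of these most 3′ probes 24 of 28 entered, whereas of probes lying more than 2000 bases 5′ of the last probe 14 of 26 did. These distances are genomic and include introns. Over the whole array 32645 of 41174 gene probes entered, and position was not counted for other genes. The 20 collagen probes that did not enter read between -0.061 and 0.11. Among them were the 5′ probe of Col1a2 (0.11), both further probes of Col6a3 (0.032 and 0.078) and the second probes of Col24a1 (0.0014) and Col5a3 (-0.060). The calls of Col1a2, Col6a3, Col24a1 and Col5a3 thus rest on 1 measured probe each. So do those of Col4a5, Col5a2, Col7a1, Col8a2, Col9a1, Col12a1 and Col20a1, which had 1 probe each under their names. Whether a probe's place, its sequence or the transcript's form sets its ratio was not tested.

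**Figure D3:**
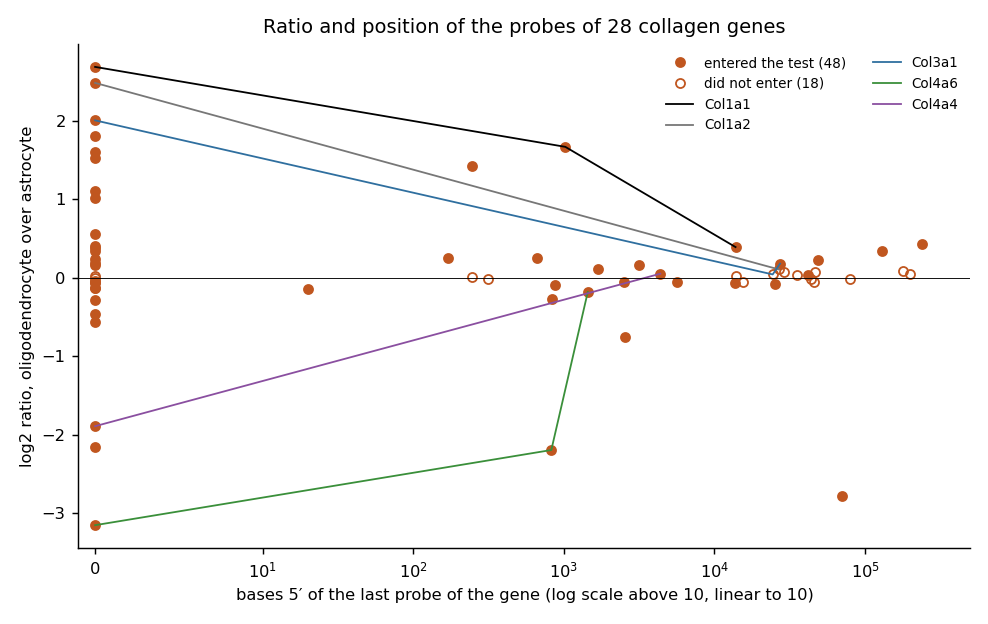
Log2 ratio (vertical axis, mean of 2 arrays) of every probe of the 28 collagen genes with several probes against its distance in bases 5′ of the gene's last probe (horizontal axis, log scale above 10 bases and linear to 10); filled points entered the test, open points did not, and lines join the probes of 5 genes. The joined genes have their ratio farthest from 0 at their last probe, whereas Col22a1 reads -2.78 at a probe 70425 bases 5′ of its last.

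Several collagen genes are neighbours in the genome, and neighbours did not always share a ratio. In RefSeq's GRCm38.p6 annotation, Col4a5 and Col4a6 lie head to head on chromosome X, 1274 bases apart (Col4a6 at chrX:141165403-141474095 and Col4a5 at chrX:141475370-141689236), and both were higher in astrocytes (-1.86 and -3.16). The other type IV pairs are also head to head and overlap at their starts. Col4a1 and Col4a2 on chromosome 8 read 0.23 and 0.38, and Col4a3 and Col4a4 on chromosome 1 read -0.047 and 0.051. Col4a3 was well above background in oligodendrocytes on 1 array only, and the more 3′ probe of Col4a4 read -1.89. Whether this last pair shares a ratio is therefore not settled. Col3a1 and Col5a2 lie tail to tail on chromosome 1, 24624 bases apart, and had opposite signs (2.01 and -0.41). On chromosome 10, Col18a1 (1.60) lies 326133 bases from Col6a1 (0.0023).

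The upstream sequences are shown for a pair higher in each cell type. RefSeq listed promoters for 32 of the 40 collagen genes. Bases that fall inside the gene's own annotated limits were left out, which leaves 250 bases for Col1a2 (chr6:4505368-4505617, plus strand) and Col3a1 (chr1:45311288-45311537, plus strand), 201 for Col4a5 (chrX:141475169-141475369, plus strand) and 231 for Col4a6 (chrX:141474096-141474326, minus strand), all in GRCm38.p6. Capitals mark the CCAAT box, the TATA box motif spelled TATAAA and the GC box motif spelled GGGCGG, searched on both strands; no match overlaps another here.

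Col1a2: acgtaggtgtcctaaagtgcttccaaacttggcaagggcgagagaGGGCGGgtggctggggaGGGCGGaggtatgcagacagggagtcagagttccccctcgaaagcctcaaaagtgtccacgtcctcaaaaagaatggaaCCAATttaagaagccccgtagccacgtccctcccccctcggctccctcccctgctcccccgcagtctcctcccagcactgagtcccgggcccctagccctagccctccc
Col3a1: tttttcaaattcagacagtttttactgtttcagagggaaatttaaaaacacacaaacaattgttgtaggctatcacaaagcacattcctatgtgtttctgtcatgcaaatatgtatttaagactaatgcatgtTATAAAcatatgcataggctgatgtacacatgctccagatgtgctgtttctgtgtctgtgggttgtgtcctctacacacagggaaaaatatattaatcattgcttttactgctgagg
Col4a5: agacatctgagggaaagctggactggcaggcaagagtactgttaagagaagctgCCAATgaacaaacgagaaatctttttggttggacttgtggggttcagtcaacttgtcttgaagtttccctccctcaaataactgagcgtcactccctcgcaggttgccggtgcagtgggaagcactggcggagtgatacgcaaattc
Col4a6: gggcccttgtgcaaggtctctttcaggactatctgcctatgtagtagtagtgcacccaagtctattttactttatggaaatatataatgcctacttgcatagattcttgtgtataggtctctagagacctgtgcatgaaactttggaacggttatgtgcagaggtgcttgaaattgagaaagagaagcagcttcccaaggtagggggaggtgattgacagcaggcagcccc

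In Col1a2, CCAAT begins 109 bases before the start and GGGCGG 205 and 188 bases before it. Col3a1 holds TATAAA at 117 bases and Col4a5 CCAAT at 147 bases, and none of the 3 motifs was in the shown stretch of Col4a6. Distances run to the end of the shown stretch, which for Col4a5 lies 49 bases before the listed start. Over 250 bases before every listed start, CCAAT was present in 12 of 35 collagen promoters (34.3%) and 33.8% of 32851 promoters, TATAAA in 5 (14.3%) and 12.4%, and GGGCGG in 19 (54.3%) and 32.7%. These matches are a description of letters; factor binding was not measured.

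Genes that make collagen inside the cell were called in both directions. Of 20 biosynthesis enzymes and chaperones, 5 favoured oligodendrocytes and 7 astrocytes, where all genes gave 18.6% and 22.6%, and the median was -0.16. The 3 largest called ratios were Fkbp10 (-1.87 and -0.85, mean -1.36), a collagen prolyl isomerase, P4ha3 (-1.34), a prolyl 4-hydroxylase subunit, and Plod2 (-1.31), a lysyl hydroxylase. All 3 were higher in astrocytes. Serpinh1, the chaperone HSP47 that binds the folded helix, lay at -0.64. The counts became 0 and 18 when ratios were set to the spike-ins.

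Of 14 tested genes that process and crosslink collagen outside the cell, 5 were higher in oligodendrocytes and 4 in astrocytes (median 0.029, and -0.68 with ratios set to the spike-ins). Lox, the lysyl oxidase that crosslinks fibrillar collagen, was 2.98 ± 0.16 higher in oligodendrocytes, whereas Sparc, a collagen-binding matrix protein, and Fmod, a fibril-binding proteoglycan, were higher in astrocytes at -2.05 ± 0.093 and -1.67 ± 0.11. Of 10 tested receptors, 4 were higher in oligodendrocytes and 3 in astrocytes (median 0.0095, and -0.70 with the spike-ins). Lair1, an inhibitory receptor of immune cells, stood at 2.20, Itga11, an integrin chain for fibrillar collagen, at 1.61, and Itga1, an integrin chain for type IV collagen, at -1.89, a call lost with its dimmest probe (-0.23).

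Of the 4 collagen pathway lists, degradation had the highest median, 1.25 over 9 tested genes, with 5 higher in oligodendrocytes and 3 in astrocytes. This list also holds the protease inhibitors Timp1, Timp2 and Timp3, so its median and counts are not those of degrading enzymes alone. Mmp8 (3.06 ± 0.43) and Mmp13 (2.28 ± 0.14), both collagenases, and Ctsk (2.24 ± 0.026), a collagen-cleaving cathepsin, were higher in oligodendrocyte RNA. The protease inhibitor Timp3 and the membrane protease Mmp14 were higher in astrocytes, at -2.06 and -1.03. With ratios set to the spike-ins the counts became 5 and 4 and the median 0.54. The median was 0.51 over 10 genes without the filter on dim probes and 1.91 with Feature Extraction's log ratio. The microglia markers given above moved the same way, and their part was not tested.

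**Figure D4:**
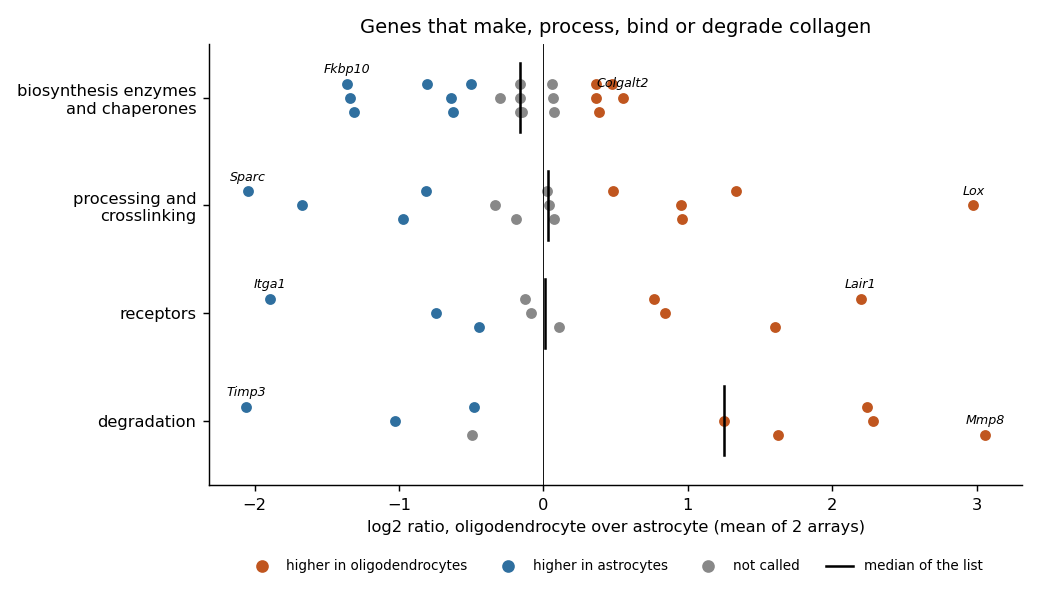
Log2 ratios of oligodendrocyte over astrocyte (horizontal axis, mean of 2 arrays) of genes that make, process, bind or degrade collagen. The degradation list includes protease inhibitors. Each gene has 1 point, coloured by the limma call, and a black bar marks each list's median. The medians are -0.16, 0.029, 0.0095 and 1.25; the lowest and the highest gene of each list are named.

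Cert1, the ceramide transfer protein that the naming rule also took, read 0.63 and 0.10 and was not called (0.36 ± 0.38).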

How the data were processed

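Members, gene lists and classes were chosen with earlier results of these data known. The deposited scanner files hold spot and local background intensities in each channel, not normalised by the authors; Agilent Feature Extraction read them, per the submitters' processing notes. The log10 ratios deposited beside them, and again in the authors' value table, had been corrected for background and dye, per the file headers. The array design uses mm7, per the file headers.

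Here, background was corrected with normexp (offset 50, which pulls ratios of dim probes toward 0) in limma 3.58.1 (R 4.3.3), ratios were normalised by loess within arrays with controls at weight 0, turned by the dyes in the labels, and averaged over spots of a probe. Spots marked as outliers were left out. To enter, a probe needed a share of at least 0.5 of its spots well above background, on each array, in the same cell type, which 32645 of 41174 did; the share of gene spots well above background was 76.6% to 83.9%. Names came from RefSeq (GRCm38.p6). Tests were limma's lmFit and eBayes against 0, with Benjamini-Hochberg adjustment over all genes, probes or pairs, and were tested on simulated data. Log2 signals per cell type followed loess and Aquantile. Named outside the collagens were the 3 largest called genes of each pathway list and the first 2 of each marker list, except 1 marker that is not reported here; Serpinh1, Timp3 and Mmp14 were chosen after their values were seen. The number of arrays limits the precision.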

Additional observations from a re-analysis of the deposited data

How the results depend on the processing

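Of 21 called collagen genes, 10 kept their call and direction in all 13 alternatives with a test: Col1a1, Col1a2, Col6a3, Col7a1, Col18a1, Col20a1, Col4a5, Col4a6, Col8a2 and Col22a1. For Col1a2, Col6a3, Col7a1, Col20a1, Col4a5 and Col8a2 only 1 probe entered, so the mean or the dimmest of a gene's probes could not change their ratios. The Col4a6 probe at -0.18 was neither its brightest nor its dimmest, so it counted only in the mean of probes. Counts of all genes, all probes and all differing pairs became 2938, 3953 and 160 with median centring, which called 8 collagens higher in oligodendrocytes, 4 higher in astrocytes and 2 collagen pairs. With ratios set to the spike-ins, 19621 genes and 29366 probes were called and 24 collagens were higher in astrocytes; pairs cannot move with this scaling. With Feature Extraction's log ratio, which the authors' value table repeats, 1146 pairs differed.

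The fibrillar median was 1.006 without background subtraction, 1.13 with an offset of 10, 1.18 with Feature Extraction's log ratio and the authors' table, 0.97 with median centring, 0.31 with the spike-ins, 0.44 with the mean of probes, 0.18 with the dimmest probe (an alternative added after seeing the data) and 0.995 to 1.004 on either array alone. The basement membrane median was -0.57 with the spike-ins, -0.034 with the mean of probes, -0.16 with the dimmest probe and 0.0023 for type IV alone. The median of the others was 0.071 with Feature Extraction's log ratio and the authors' table, -0.71 with the spike-ins and -0.061 with the dimmest probe.

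The gene ratios that changed sign with the spike-ins were Col5a1 -0.30, Col16a1 -0.16, Col13a1 -0.52, Col15a1 -0.45, Col19a1 -0.60, Col24a1 -0.27, Col27a1 -0.67, Col4a1 -0.48, Col4a2 -0.33, Col4a4 -0.66, Col6a1 -0.71, Col6a2 -0.55, Col9a1 -0.0035 and Col9a3 -0.68, by construction of a shift common to all genes. Col4a4 read -0.92 with the mean of its probes and -1.89 with the dimmest, with which Col11a2 read -0.073 and Col2a1 -0.084. The cause of the other changes was not tested.

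A fit of separate channels with no replicate block called 13 and 8 collagens, as did the fit by array. Leaving out an array leaves 1 and no test. Both arrays share a slide, so slide could not be fitted as a block. Probes not well above background limit what can be said of 20 collagen probes.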

Other observations

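Probes that RefSeq now names as collagens under other array names were left out of the counts above. Emid2, now Col26a1, read -1.85 and -1.70 (mean -1.78, limma adjusted p over probes = 1.5e-06), higher in astrocytes. A probe named C530001D20Rik, which RefSeq lists as another name of Col11a1, read 0.68 and 0.80 (mean 0.74), the same direction as the brightest Col11a1 probe. The probe of 1110001D15Rik, now Col6a4, lay at -0.14 and was not called, and that of E330026B02Rik, now Col6a6, was not well above background in either cell type.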
